A study of Rattus norvegicus with 7 samples.

Results

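The miR-379 to miR-410 cluster is a run of miRNA genes in the imprinted Dlk1-Dio3 region. Its members were chosen by name, as the mature miRNAs of 28 hairpins, and 54 of the 719 rat miRNAs on the array belong to it, read by 125 probes. RNA came from rat primary skeletal muscle cells (RSkMC), cells of neonatal limb muscle frozen at an early passage, on day 11 after differentiation was induced by a medium with 2% horse serum. The control group held 3 untreated samples and the IL-6 group 4 samples that had recombinant interleukin-6, a cytokine released by contracting muscle, at 1 ng/ml through the 11 days. Titles and the stated design give these groups, although the growth text repeated for the control samples also names IL-6. Every sample was hybridised alone to a 1-colour Agilent miRNA array. The labels do not say whether replicates were separate cultures, so the p-values measure the spread between these samples alone, which may be technical.

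A miRNA gene is transcribed as a hairpin, from which a 5p and a 3p strand (arm) can each be loaded into the silencing complex. Bases 2 to 8 of the loaded strand, the seed, select the messenger RNAs it represses. The miRNAs of the Dlk1-Dio3 region are expressed from the maternally inherited chromosome, are known from brain, embryo and regenerating muscle, and are driven in neurons and muscle by transcription factors of the MEF2 family.

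All 54 members were found in RefSeq (GRCr8), on the plus strand, and the sequences below come from there. They are both strands of the first 2 hairpins, the related 3p strands of the 3 miR-376 hairpins, and the other strands with IL-6 arrays wholly above the controls. Capitals mark the seed.
miR-379-5p: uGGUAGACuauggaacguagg
miR-379-3p: cUAUGUAAcaugguccacuaac
miR-411-5p: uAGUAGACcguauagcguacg
miR-411-3p: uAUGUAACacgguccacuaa
miR-376c-3p: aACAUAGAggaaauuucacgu
miR-376b-3p: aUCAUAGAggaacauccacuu
miR-376a-3p: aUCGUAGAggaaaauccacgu
miR-382-5p: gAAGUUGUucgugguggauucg
miR-154-5p: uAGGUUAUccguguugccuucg
miR-410-3p: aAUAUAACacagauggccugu

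The members carried 50 distinct seeds. Only 3 seeds were shared: GGUUGUC by miR-494-5p, miR-496-5p and miR-410-5p, UGGAUAU by miR-376c-5p and miR-376b-5p, and AUACAAG by miR-381-3p and miR-539-3p. No 2 of the members that could be tested had the same seed, so the detected part of the cluster did not rest on 1 repeated seed.

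The array reads the other end of the molecule. For each of the 54 members the probe used was fully complementary to the 3' end of the RNA, over 12 to 22 bases, and 46 of these probes reached at least 1 base into the seed. Related members could therefore share signal where their 3' ends are alike. The probe of miR-376b-5p matched 18 bases in a row of miR-376c-5p, yet miR-376c-5p was detected on no array. The probe of miR-299a-5p matched 18 bases in a row of miR-299b-5p, which is outside the named set and was also detected on no array. That of miR-381-3p matched 14 bases in a row of miR-300-3p, a neighbour outside the named set that was detected on all 7 arrays; how far this pair shares signal was not tested. The probe of miR-376a-3p matched at most 9 bases in a row of any other rat miRNA on the array.

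Probe positions in the files are on rn4. The 48 mapped members lay on chromosome 6 between 134388219 and 134425147, a stretch of 36.9 kb; the other 6 (miR-369-5p, miR-369-3p, miR-376b-5p, miR-376b-3p, miR-495 and miR-668) were unmapped in the files and were placed by their order in RefSeq. No gene annotation of rn4 was used here, and RefSeq lists each hairpin as a miRNA gene of its own.

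The arrays shared 1 slide and 1 scan time. The signal at the 75th percentile of probes above background, a measure of array brightness, was 419 to 492 intensity units on the control arrays and 433.6 to 615 on the IL-6 arrays, and 174 to 185 and 179 to 207 miRNAs were detected. The control arrays all lay in row 1 of the slide and the IL-6 arrays in row 2, so an effect of the row cannot be told apart from that of IL-6. In RNA of whole cultures, fewer cells of a type and less RNA per cell cannot be told apart either. Skeletal muscle miRNAs did not mark these cells: none of 7 (among them miR-1-3p, miR-133a-3p and miR-206-3p) was detected on any array, and their summed signal was at most 11.99 scaled intensity units. All 6 miRNAs of a fibroblast and smooth muscle list were detected on every array, with summed signals of 35504 to 40055 in control and 33382 to 38669 with IL-6, and none of them passed the test. Of 8 neural miRNAs, of interest because the cluster is known from brain, 3 were detected on every array: miR-128-3p, miR-218a-5p and miR-219a-5p. Their log2 differences between IL-6 and control were -0.040, 0.25 and 0.058, and none of them passed the test. The rest were not detected, among them miR-124-3p and miR-9a-5p, which define neurons and their precursors. The list's summed signal was 118 to 144 in control and 133 to 148 with IL-6. Endothelial and epithelial lists (2 and 6 miRNAs) had no detected member, and of 5 blood miRNAs only miR-223-3p was detected, on 1 array.

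Most members were not detected on any array, and the hairpins that were detected mostly gave signal from 1 strand. On all 7 arrays 16 of the 54 members, from 14 hairpins, were detected, 29 members were detected on none, and 9 on some. Of all 719 miRNAs, 168 were detected on all 7 arrays, so low detection was not particular to the cluster. Among the 26 hairpins with both arms named, miR-376b and miR-411 had both arms on all 7 arrays. For 5 hairpins only the 5p arm was seen on all arrays (miR-379, miR-299a, miR-382, miR-154 and miR-369), and for 6 only the 3p arm (miR-329, miR-494, miR-376c, miR-376a, miR-487b and miR-410). The side that was seen thus differed between neighbours: miR-299a gave its 5p arm and miR-329 and miR-494, further along, their 3p arm. miR-495, whose arm is not named on the array, was detected on all 7.

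**Figure D1:**
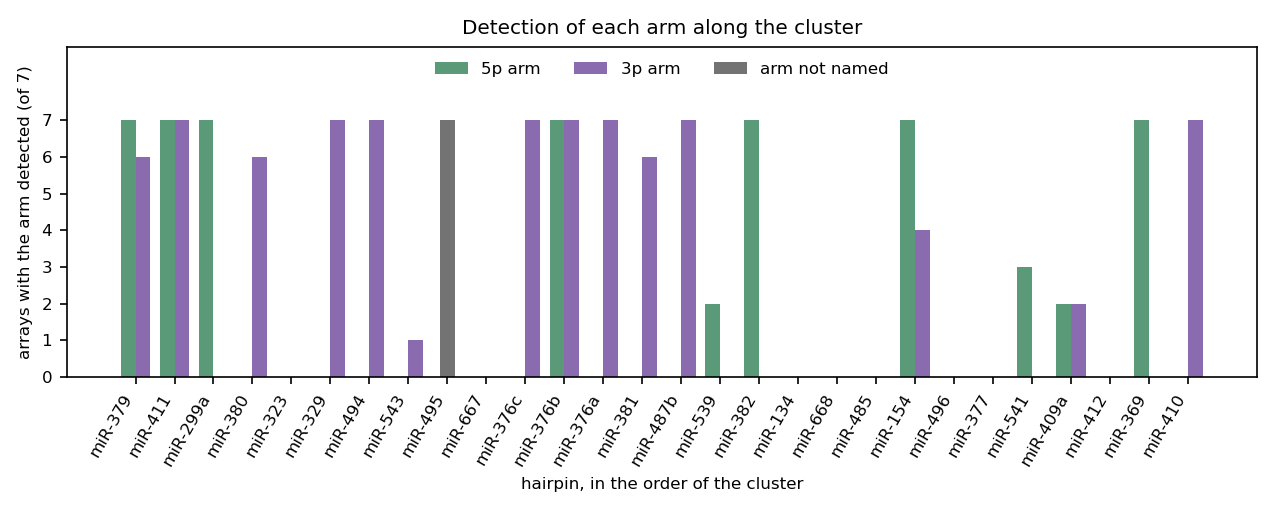
Number of the 7 arrays on which Feature Extraction detected each arm, for the 28 hairpins in cluster order (green 5p arm, purple 3p arm, grey where no arm is named). Only miR-376b and miR-411 reach 7 with both arms, and 7 hairpins with both arms named have no bar.

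Neither arm was detected on any array for 7 hairpins, miR-323, miR-667, miR-134, miR-485, miR-496, miR-377 and miR-412, and miR-668 was not detected either. miR-134, which restrains Limk1 in dendrites, is among the best known members in neurons. Scaled signals of its 5p strand averaged 2.93 in control and 4.04 with IL-6, far under the floor of 15.7 intensity units below which signals were not ordered. Detected members lay along the whole run: 7 of 17 in the first 9 hairpins (miR-379 to miR-495), 6 of 19 in the next 10 (miR-667 to miR-668) and 3 of 18 in the last 9 (miR-485 to miR-410) were detected on all arrays.

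More members were detected on IL-6 arrays than on control arrays. The controls detected 16, 19 and 19 members, and IL-6 replicates 1 to 4 detected 23, 25, 20 and 22. The groups did not overlap in this count. Over all miRNAs the same arrays detected 174, 178 and 185 in control and 199, 207, 179 and 188 with IL-6, where the groups did overlap. Brightness was 419, 466 and 492 for the controls and 433.6, 615, 523 and 517 for IL-6, and its part in the count was not tested.

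Of the 9 members detected on some arrays, the 3p arms of 3 hairpins (miR-379, miR-380, miR-381) were missed on 1 control array alone. The other 6 were detected on IL-6 arrays only. The share of all 719 miRNAs with that pattern is not given here, so the 6 are not read as a trait of the cluster. miR-154-3p was detected on all 4 IL-6 arrays and on no control array, at scaled signals of 10.4, 9.4 and 9.2 in control and 10.5, 11.9, 10.4 and 12.8 with IL-6. These values lie under the floor on every array, its probe was not well above background on any, and control replicate 1 was level with IL-6 replicates 1 and 3. miR-541-5p was detected on 3 IL-6 arrays, miR-539-5p, miR-409a-5p and miR-409a-3p on 2 each, and miR-543-3p on 1. No fold is given for these 6.

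The study compared cells that differentiated with and without the cytokine. With IL-6, miR-376a-3p was 37.2% higher and miR-382-5p 24.6% higher, both past the threshold given below, and no member was called lower. For each of the 2, most of the alternative fits described below did not make the call. Signals were scaled between arrays by the brightness given above, floored, put on the log2 scale and fitted with limma over 181 miRNAs, those that all arrays of either group had detected, with Benjamini-Hochberg adjustment over all of them and a threshold of 0.05. Of the members, 20 could be tested. The 2 members called higher compare with 4.97% of all 181 miRNAs called higher, and the 0 members called lower with 4.42% called lower. In limma 7 members had an unadjusted p under 0.05, all of them higher. Of all tested miRNAs, 16% were higher and 11% lower at that level.

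miR-376a-3p belongs to a group whose hairpins undergo A-to-I RNA editing in the seed, a known way of changing its targets. Its probe maps to chr6:134404745-134404760. The scaled signal was 62.6, 71.4 and 84.7 on the control arrays and 97.8, 95.2, 99.5 and 104.6 on the IL-6 arrays. Every IL-6 array lay above every control array, and the controls were spread more widely than the IL-6 arrays (log2 means 6.18 ± 0.22, SD, n = 3, and 6.63 ± 0.06, SD, n = 4). The log2 difference was 0.46 ± 0.10 SE (limma, adjusted p = 0.0447; exact two-sided permutation p = 0.0286, the smallest that 35 splits allow). Its other probe, 1 base shorter, gave 0.54. Within the 3 slide columns that held both groups, the differences were 0.64, 0.48 and 0.30.

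That call rested on few arrays. Left out one at a time, only control replicate 3 could be dropped with the call kept (log2 difference 0.57, limma adjusted p = 0.0178). Without each of the other arrays the limma adjusted p was 0.0826 to 0.143, with log2 differences of 0.39 to 0.48, and with slide column as a block it was 0.0774. The difference was above 0 in all 27 alternatives, from 0.28 to 0.64, and 10 of them called it. Changes of floor or filter and limma's trend and robust options left the estimate at 0.46, so they bear on the call alone.

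For miR-382-5p, whose probe maps to chr6:134415282-134415296, the scaled signal was 48.2, 49.7 and 47.6 in control and 68.3, 60.6, 56.0 and 57.5 with IL-6. Here the controls were close together, all IL-6 arrays were above them, and IL-6 replicate 1 was the highest. The log2 means were 5.600 ± 0.032 (SD, n = 3) and 5.92 ± 0.13 (SD, n = 4), a difference of 0.32 ± 0.07 SE (limma, adjusted p = 0.0447; exact two-sided permutation p = 0.0286). Its second probe was well above background on 2 arrays and at the floor on 6. Within slide columns the differences were 0.50, 0.17 and 0.27, and with slide column as a block the limma adjusted p was 0.131. The call was kept without IL-6 replicate 1 (0.26, limma adjusted p = 0.0305) and lost without any other array (limma adjusted p of 0.0734 to 0.135). It also missed the threshold under quantile normalization and the median of probe ratios (limma adjusted p = 0.282 and 0.0811). With the mean over its probes the call was kept at a smaller difference, 0.17 (limma adjusted p = 0.0492). In all, 8 of 27 alternatives called miR-382-5p, and over all 27 its log2 difference ran from 0.17 to 0.50. Its opposite strand, miR-382-3p, was not detected on any array.

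**Figure D2:**
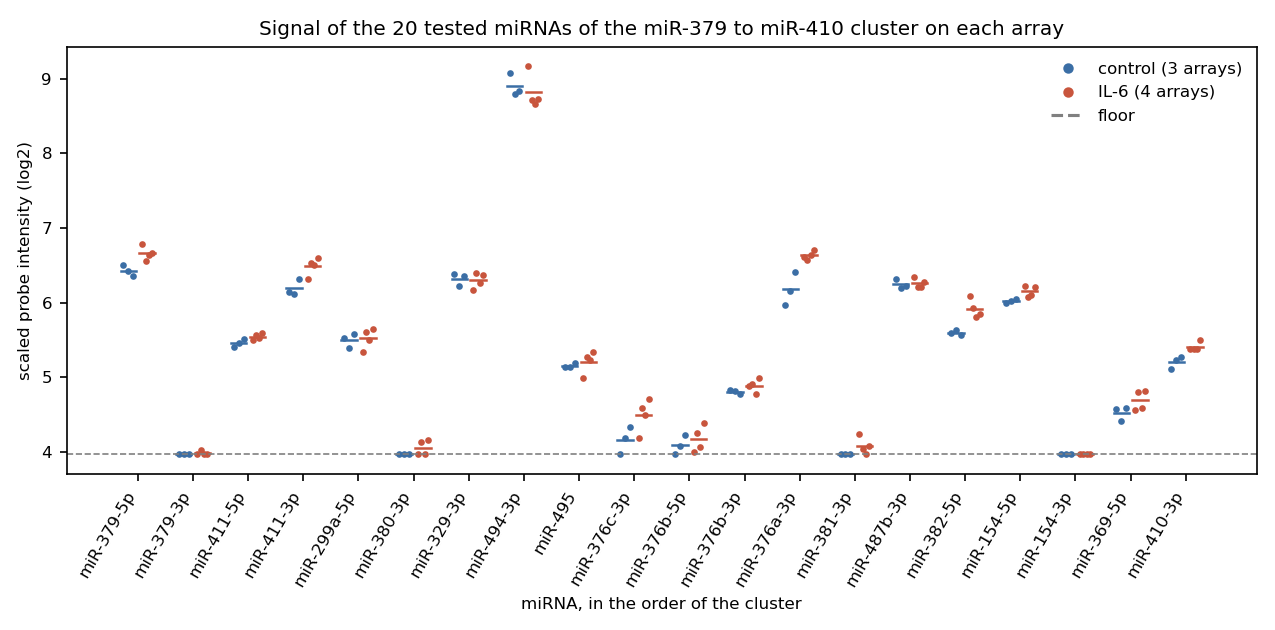
Scaled probe intensity on the log2 scale for the 20 tested members in cluster order; each point is 1 array (blue control, red IL-6), short lines are group means and the dashed line is the floor at 3.97. The 4 IL-6 points of miR-376a-3p and miR-382-5p all sit above the 3 control points, while those of miR-329-3p and miR-494-3p overlap with them.

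A further 4 members had IL-6 arrays wholly above the controls without passing the test over all miRNAs. In all 6 of 20 tested members were separated this way, each of them higher, where 11.6% of all tested miRNAs were separated with IL-6 higher and 10.5% with IL-6 lower. Members and background are best compared among miRNAs detected on every array, since 4 members were tested only because the IL-6 arrays detected them: there 6 of 16 members (37.5%) were separated upward, against 12.5% of 168 miRNAs. miRNAs of 1 transcript can vary together between arrays, so these need not be 6 separate differences.

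miR-379-5p opens the cluster; its scaled signal was 90.7, 85.6 and 82.2 in control and 110.5, 93.8, 99.3 and 101.4 with IL-6. The gap between the groups was narrow, from 90.7 to 93.8. The log2 difference was 0.23 ± 0.06 SE (limma, adjusted p = 0.0801; exact permutation p = 0.0571), and its second probe gave 0.32. In limma it passed under spike-in scaling, which moved the median over all 181 miRNAs to 0.18, and with array weights.

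miR-411-3p, from the next hairpin, had scaled signals of 70.9, 69.2 and 79.6 in control and 80.0, 92.1, 90.4 and 96.5 with IL-6. Control replicate 3 and IL-6 replicate 1 were almost level. The log2 difference was 0.29 ± 0.08 SE (limma, adjusted p = 0.0801; exact permutation p = 0.0571), and the shorter probe gave 0.32. Other processing called it in 6 of 27 alternatives (limma), among them leaving out IL-6 replicate 1 (adjusted p = 0.0408).

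At the far end of the run, miR-410-3p, which in regenerating muscle is reported to repress the WNT inhibitor Sfrp2, had scaled signals of 34.4, 37.7 and 38.5 in control and 41.7, 41.7, 41.5 and 45.1 with IL-6. The groups did not overlap. Its log2 difference was 0.20 ± 0.05 SE (limma, adjusted p = 0.0670; exact permutation p = 0.0286) with 0.22 from its second probe.

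miR-154-5p had scaled signals of 63.8, 64.9 and 66.4 in control and 74.98, 67.3, 68.8 and 74.0 with IL-6, again without overlap but with a smaller step. The log2 difference was 0.13 ± 0.046 SE (limma, adjusted p = 0.149; exact permutation p = 0.0571), and its second probe gave 0.15. With the 75th percentile taken over all probes the value turned to -0.010, with a median of -0.12 over all 181 miRNAs.

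Other well measured members differed little between the groups. miR-494-3p, reported to fall as myoblasts differentiate and to target the mitochondrial factor Tfam, was brightest on replicate 1 of each group: 541.7, 445.0 and 458.1 in control and 573.5, 421.3, 404.4 and 421.8 with IL-6. Both replicate 1 arrays were in the same slide column, and all other arrays were lower. The log2 difference was -0.091 ± 0.14 SE (limma, adjusted p = 0.788), and its second probe had the opposite sign, 0.062.

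miR-329-3p, which with miR-134 is linked to dendrite growth, gave 83.3, 74.5 and 82.0 in control and 71.8, 84.2, 77.1 and 83.0 with IL-6. For miR-487b-3p the signals were 79.6, 73.6 and 74.5 in control and 81.1, 73.9, 74.1 and 77.8 with IL-6. In both the groups overlapped throughout, at log2 differences of -0.018 ± 0.070 SE and 0.015 ± 0.046 SE (limma, adjusted p = 0.909 and 0.894). miR-299a-5p gave 46.1, 42.1 and 47.7 in control and 40.6, 48.7, 45.2 and 50.04 with IL-6. miR-495 gave 35.1, 35.1 and 36.5 in control and 31.9, 38.7, 37.5 and 40.6 with IL-6. For these the lowest value of all was that of IL-6 replicate 1, and the log2 differences were 0.023 ± 0.085 SE and 0.058 ± 0.084 SE (limma, adjusted p = 0.909 and 0.777).

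The 3 miR-376 hairpins follow each other in the cluster. miR-376c-3p, near the floor, had group means of 17.7 in control and 22.8 with IL-6 in scaled units, and a log2 difference of 0.34 ± 0.14 SE (limma, adjusted p = 0.2005), with the groups overlapping and replicate 1 of control at the floor. miR-376b-3p had 28.4, 28.1 and 27.5 in control and 29.5, 30.1, 27.3 and 31.7 with IL-6. Its log2 difference was 0.079 ± 0.052 SE (limma, adjusted p = 0.422), and IL-6 replicate 3 was the lowest array. Only miR-376a-3p of the group passed; whether its difference exceeded that of miR-376b-3p was not tested.

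The other 5 tested members with a value above the floor were dim. miR-376b-5p gave 15.6, 16.8 and 18.7 in control and 16.0, 19.1, 16.7 and 21.0 with IL-6, a log2 difference of 0.087 ± 0.11 SE (limma, adjusted p = 0.755). miR-369-5p had scaled means of 23.1 and 26.0 and a log2 difference of 0.17 ± 0.086 SE (limma, adjusted p = 0.286). miR-379-3p gave 9.3, 11.8 and 10.6 in control and 14.1, 16.4, 14.8 and 15.4 with IL-6, and above the floor was IL-6 replicate 2 alone. The 3p strand of miR-380 had scaled means of 13.7 and 16.4, and that of miR-381 of 13.1 and 16.9. The probes of these 3 members were well above background on no control array and on 1, 3 and 2 IL-6 arrays. All their control values were set to the floor, so a difference below 0 was not possible, and no fold is given.

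**Figure D3:**
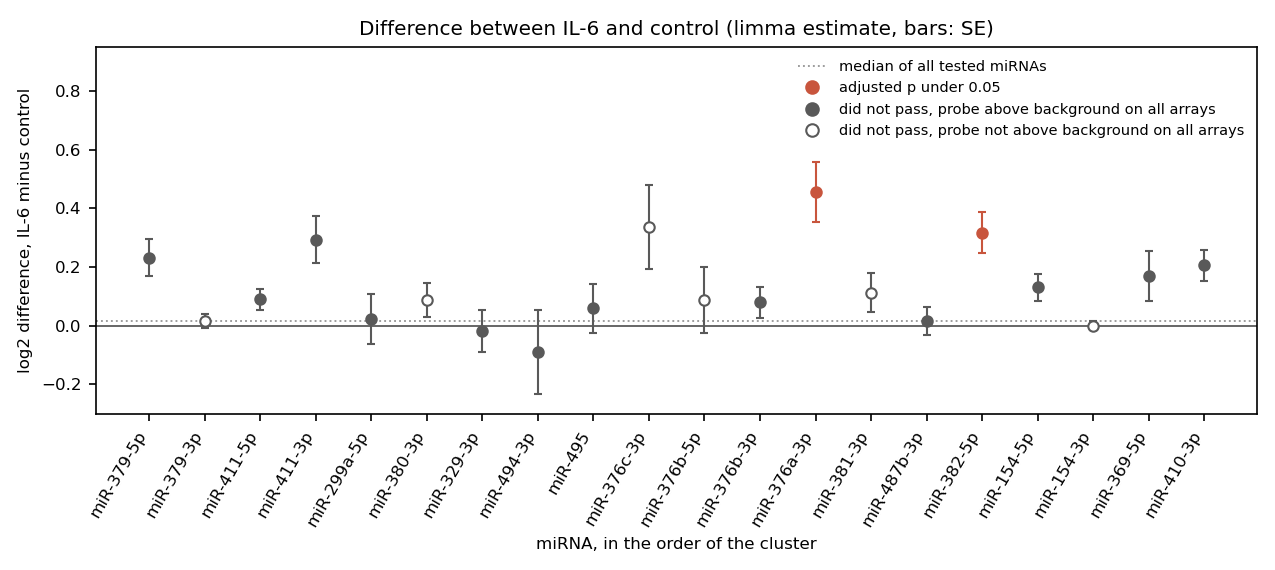
Log2 difference (IL-6 minus control, limma) with its SE for the 20 tested members in cluster order; red marks adjusted p under 0.05, open circles mark probes that were not above background on all arrays, and the dotted line is the median over the 181 miRNAs, 0.015. Red points are miR-376a-3p at 0.46 and miR-382-5p at 0.32, and the lowest value is -0.091 for miR-494-3p.

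Over the 16 members detected on all arrays, 14 log2 differences were above 0 and 2 below, with a median of 0.11. With the 75th percentile over all probes, 7 were above 0. Among all 168 miRNAs detected on all arrays, 54.8% were above 0 and the median was 0.015. Over the 14 members whose probe was well above background on all arrays, the median shift of an array from the control mean was 0.11, 0.11, 0.075 and 0.19 for IL-6 replicates 1 to 4 and 0.0064, -0.018 and 0.037 for the controls. The same shift over 152 such miRNAs was between -0.019 and 0.060 on every array. These are descriptions of a named set, and no test was made of it as a whole.

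Values above 0 were found in each stretch of the run. Members detected on all arrays ranged from -0.091 to 0.29 in the first 9 hairpins (7 members, median 0.058), from 0.015 to 0.46 in the middle 10 (6 members, median 0.20) and from 0.13 to 0.20 in the last 9 (3 members, median 0.17). Both called members were in the middle part. Within the 3 slide columns that held both groups, 9 of the 16 members detected on all arrays were higher with IL-6 in all 3, against 29.2% of the 168 miRNAs; 6 were higher in 2 columns and 1 in 1.

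Both strands could be compared for 2 hairpins. Brightness of different probes does not give the ratio of the strands. A change of the difference between arms does not depend on scaling by 1 factor where both arms are above the floor on every array. For miR-411 the 5p minus 3p difference on the log2 scale was -0.75, -0.65 and -0.81 on the control arrays and -0.82, -0.96, -0.97 and -0.9994 on the IL-6 arrays. The groups did not overlap, with means of -0.73 ± 0.079 (SD, n = 3) and -0.94 ± 0.079 (SD, n = 4), a change of -0.20 in the direction of the 3p strand. The exact two-sided permutation p was 0.0571, or 0.114 adjusted over the 2 hairpins (range over alternatives 0.0571 to 0.5). With 35 splits, 1 of 2 hairpins cannot go below an adjusted p of 0.0571, so this test could not pass 0.05 for miR-411 alone. miR-411-5p itself had scaled signals of 42.2, 44.1 and 45.5 in control and 45.2, 47.3, 46.2 and 48.3 with IL-6, a log2 difference of 0.090 ± 0.036 SE (limma, adjusted p = 0.172). Its second probe, well above background on 6 arrays, gave 0.25, and the mean over its probes passed (0.17, limma adjusted p = 0.0492). With the second probes of both arms the change of the arm difference was -0.070 in place of -0.20, so its size depends on the probes.

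For miR-376b the arm difference was -0.86, -0.74 and -0.56 in control and -0.88, -0.66, -0.71 and -0.59 with IL-6. The groups overlapped throughout and the change was 0.0078 (exact two-sided permutation p = 0.943, adjusted p = 0.943). Its 5p strand was at the floor on 1 array.

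**Figure D4:**
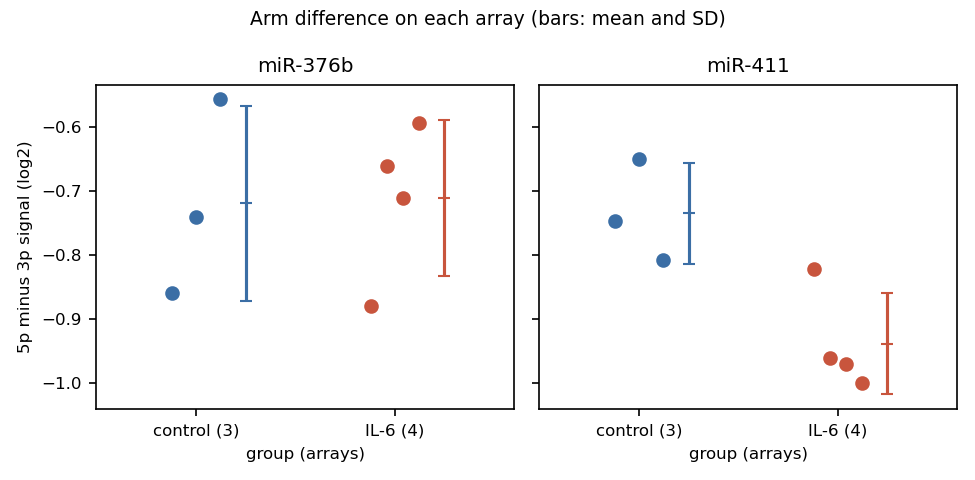
Log2 signal of the 5p arm minus that of the 3p arm on each array (points; blue control, red IL-6) with group mean and SD beside them, for the hairpins with both arms detected on all 7 arrays. For miR-411 the IL-6 points run from -0.9994 to -0.82, all below the control points; for miR-376b the groups overlap.

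A list of 37 further miRNAs of the Dlk1-Dio3 region, some of them inside the mapped stretch, was also read. Of these 12 were tested, 8 with a log2 difference above 0 and 3 below, at a median of 0.075, and none passed in either direction (limma). Those of highest mean signal were miR-127-3p, from the strand opposite the retrotransposon-like gene Rtl1 (log2 difference -0.0035 ± 0.058 SE, limma adjusted p = 1), miR-434-3p (0.070 ± 0.050 SE, adjusted p = 0.477) and miR-136-5p (0.39 ± 0.20 SE, adjusted p = 0.286). miR-300-3p, the close relative of miR-381-3p, had 0.17 ± 0.053 SE (limma, adjusted p = 0.110). Outside the named set, 9 miRNAs with probes were placed inside the mapped stretch, among them both arms of miR-299b and miR-758. None of these 9 was detected on any array. They may not be all the other miRNAs of the stretch: miR-300-3p, detected on all 7 arrays, was not placed by this step.

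The median of the 16 members detected on all arrays moved with the processing, as did that of the 168 miRNAs detected on all arrays. In 27 of 27 alternatives the members' median was the higher, by 0.041 (2 times the floor) to 0.14 (mean over probes). No filter, the filter on detection on all arrays and limma's trend and robust options left both medians as reported. Those alternatives add nothing to the count. No alternative called a member lower, and 14 of 27 called none higher. With array weights 6 members were called higher, where 16% of all tested miRNAs were higher and 9.94% lower (limma). Without control replicate 3 and IL-6 replicate 1, 4 were called, against 10.4% of all; under spike-in scaling miR-379-5p alone was, against 2.21%. With 1 array left out, members called higher numbered 1 without control replicate 3 (3.85% of all), 2 without IL-6 replicate 1 (4.42%), 0 without IL-6 replicate 2 (4.97%) and 0 without IL-6 replicate 4 (1.1%). With 2 times the floor 0 members were called, against 3.31% of all, and with IL-6 replicates 3 and 4 averaged 0, against 0.552%. Where neither a member nor any other miRNA was called higher, the share of all was 0%; this held without control replicate 1, control replicate 2 or IL-6 replicate 3, with the replicate and column blocks, with no scaling, normexp, no filter, the value table and the percentile over all probes. The alternatives share most of their data.

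**Figure D5:**
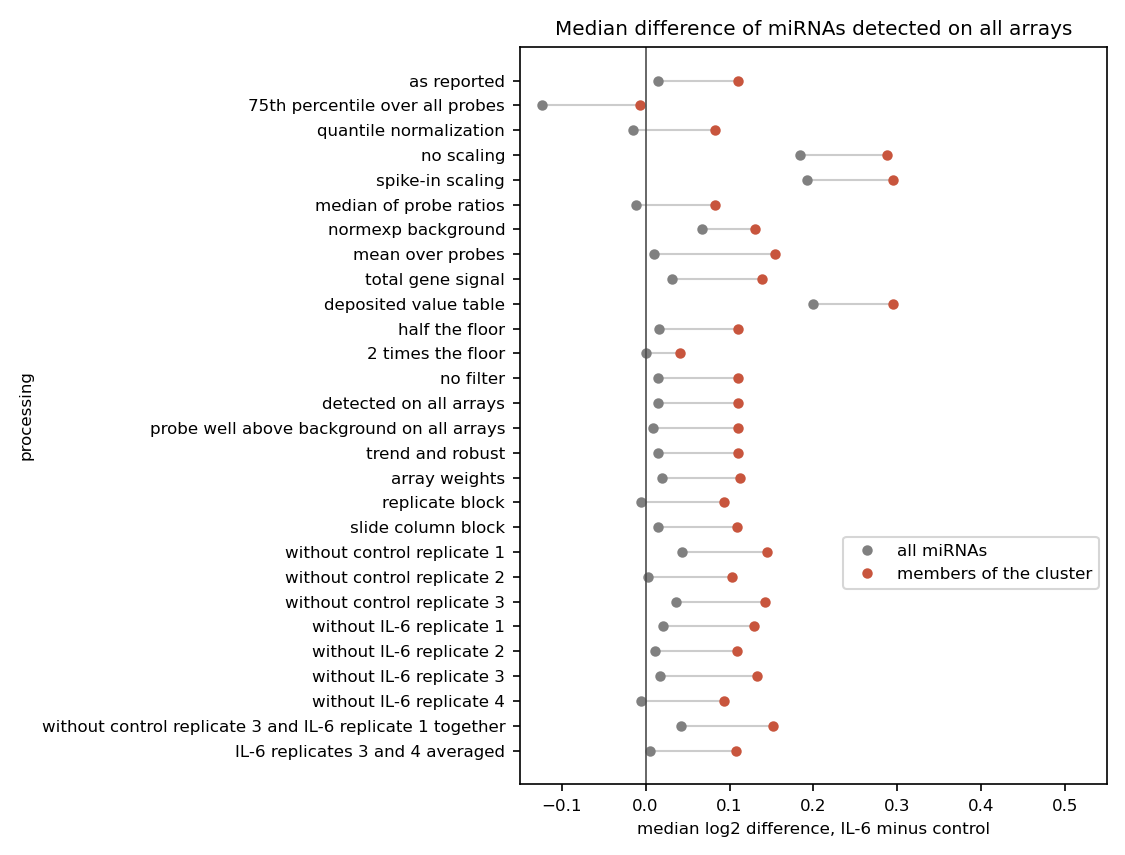
Median log2 difference (IL-6 minus control) of the members (red) and of all miRNAs (grey) that were detected on all arrays, as reported and under each of the 27 alternatives. Red lies right of grey in each line; both shift together with the scaling, to 0.29 and 0.19 under spike-in scaling.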

How the data were processed

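The authors extracted the scans with Agilent Feature Extraction 10.10.1.1, as the headers of their files state. Its processed signal, a linear intensity per spot with the background subtracted and arrays left unscaled, was used here as deposited. Values in the series' table matched the total probe signal of each array on all 15095 spots (tolerance 0.001). Members and lists were chosen with earlier results of these data known.

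Control spots and outlier spots (2.88% to 3.84%) were left out. Spots of a probe were averaged (the median CV between spots of the tested members' probes was 9.36%), scaled by each array's 75th percentile of 268 probes that were well above background throughout (in at least a share of 0.5 of spots), set to a floor of 15.7 units and put on the log2 scale. Scaled intensities in the text are before the floor. The probe of highest mean stood for its miRNA. Probe brightness also depends on probe length and base composition, so levels of different members were not compared; mean signal served only to choose which to print in full. Detection is Feature Extraction's call per miRNA; 538 of 719 miRNAs were not tested. Tests used limma's lmFit and eBayes (version 3.58.1, R 4.3.3) with Benjamini-Hochberg adjustment, and single values with exact permutation tests. The fit was also run on simulated data with independent noise and no floor. These settings differ from the arrays, so that run is no support for the calls. The number of arrays limits precision: the median SE of a log2 difference was 0.067.

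Named in full were members past the threshold or without overlap between groups, the 12 of highest mean signal, and both arms where both were tested. Alternatives covered scaling (all probes, quantile, none, spike-in, median of probe ratios), normexp background with an offset of 50, probe choice, total gene signal, the value table, floor, filter, limma options, blocks for replicate number and slide column, and left-out arrays. Slide rows and columns were read from the array position in the deposited files' names. Whether replicate numbers pair the arrays was not known and could not be settled from so few arrays. Deviations from group means correlated at 0.52, -0.18 and 0.26 between arrays of the same number. Between arrays of the same slide column they correlated at 0.52, 0.19 and 0.13. In 1 alternative IL-6 replicates 3 and 4 were averaged. The SD of the log2 differences between these 2 arrays was 0.087, against 0.125 to 0.232 for the other pairs within a group. Whether they came from 1 RNA is not known.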

Additional observations from a re-analysis of the deposited data

Results flagged for a closer look

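Among 22 quantities, 3 had an IL-6 array whose distance to the next one, as a share of the range over the 4 IL-6 arrays, passed Dixon's critical value at the 0.05 level, which chance does in about 1 in 20. miR-494-3p was 9.16 on IL-6 replicate 1 and at most 8.72 on the other IL-6 arrays (log2, ratio 0.879). miR-410-3p was 5.50 on IL-6 replicate 4 and 5.38 on its neighbour (ratio 0.948). miR-379-3p was above the floor on IL-6 replicate 2 alone, at 4.03 against 3.97 (ratio 1), so this ratio follows from the floor.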

How the results depend on the processing

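The count of members called higher was 2 as reported. It was 0 with the 75th percentile over all probes, no scaling, normexp background, the deposited value table, 2 times the floor and no filter. It was also 0 with the replicate block (whether the numbers pair arrays is not known), the slide column block and IL-6 replicates 3 and 4 averaged. It was 1 with spike-in scaling, 6 with array weights and 4 with control replicate 3 and IL-6 replicate 1 both left out, and 0 to 2 with 1 array left out (limma). It was 3 with the median of probe ratios and the mean over probes, each against 11 of all 181 tested miRNAs called higher. It was also 3 with a lower floor (8 of 181) and with probes well above background on all arrays alone (8 of 152). Where 2 were called they were not always miR-376a-3p and miR-382-5p: under total gene signal they were miR-381-3p and miR-154-3p, under quantile normalization miR-376a-3p and miR-411-3p, and without IL-6 replicate 1 miR-382-5p and miR-411-3p. With 0 members called, 1 to 52 miRNAs of all those tested had a p under 0.05 before adjustment. None was called lower in any alternative. The cause of these changes was not tested.

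The median log2 difference of the 20 tested members, 0.088, includes 4 tested only through the IL-6 arrays. It became 0.014 with the 75th percentile over all probes, 0.046 with quantile normalization, 0.25 with no scaling, 0.25 with spike-in scaling, 0.15 with normexp, 0.19 with total gene signal, 0.34 in the value table, 0.19 with 0.5 times the floor, 0.0096 with 2 times the floor and 0 with no filter. The median of all tested miRNAs moved with it, to -0.12, -0.0100, 0.17, 0.18, 0.078, 0.036, 0.20, 0.020, 0 and 0.

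Some members changed sign, among them miR-154-5p, which was 0.13 as reported, with groups that did not overlap. Under the percentile of all probes the values below 0 were -0.010 for miR-154-5p, -0.12 for miR-299a-5p and -0.062 for miR-376b-3p. They were -0.0027 for miR-376b-5p, -0.052 for miR-411-5p, -0.13 for miR-487b-3p and -0.083 for miR-495, where the sign also changed. miR-299a-5p was -0.044 with quantile normalization, -0.0043 with the median of probe ratios, -0.018 with the replicate block and -0.0046 with the column block. miR-329-3p was 0.16 with no scaling, 0.17 with spike-in scaling, 0.049 with normexp, 0.17 in the value table, 0.033 with array weights and 0.046 with both those arrays left out. miR-487b-3p was -0.012 with the median of probe ratios, -0.0026 with array weights and -0.025 without both arrays. miR-494-3p was 0.087 with no scaling, 0.094 scaled by spike-ins and 0.094 in the value table. With 1 array left out, miR-299a-5p ran from -0.030 to 0.083, miR-329-3p from -0.069 to 0.053, miR-487b-3p from -0.012 to 0.091 and miR-494-3p from -0.21 to 0.038.

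The change of the miR-376b arm difference, 0.0078, was -0.030 with quantile normalization, -0.034 with no scaling, -0.043 with spike-in scaling, -0.10 with the mean over probes, -0.029 with total gene signal, -0.056 in the value table, -0.0039 with 2 times the floor, -0.031 with the replicate block and -0.012 with IL-6 replicates 3 and 4 averaged, and -0.054 to 0.072 with 1 array left out. That of miR-411 stayed below 0, from -0.28 to -0.12. Signals near background, 6 of the 20 tested members, are limited by the floor.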
